A study of Homo sapiens with 72 samples.

Results

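The CXC chemokines of the neutrophil-attracting group, CXCL1, CXCL2, CXCL3, CXCL5, CXCL6 and IL8 (also named CXCL8), were followed in IMR-90 cells, a normal fibroblast line from human lung, after exposure to α-particles. Every non-control probe of the whole human genome arrays that carried 1 of these names was taken, which gave 6 of 30142 gene and transcript names and 10 of 41000 probes, and 9 of the 10 were among the 25246 probes bright enough to be tested. Irradiated cells, on the thin outer Mylar of a dish, received 0.5 Gy of 4He ions, bystander cells shared that dish and its medium but sat on shielding Mylar strips, and control dishes of each time were sham-irradiated. RNA was taken at 0.5, 1 and 2 h, at 4 and 6 h and at 24 h in 4 experiments, so that each of the 3 groups had 4 arrays at each of the 6 times, 72 arrays in all. The cells were 1 fibroblast line in culture, with no neutrophils to respond to the chemokines and no measure of secreted protein. Values are log2 intensities after scaling of every array to the same 75th percentile, and a ratio is the mean of the differences within experiments, with its SD over the 4. A probe rose when its adjusted p in the limma fit across all tested probes was under 0.1. P-values measure the spread between these 4 experiments. In RNA from whole cultures, fewer producing cells and less RNA per cell cannot be told apart.

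Chemokines of this group are small secreted proteins that carry the residues glutamate, leucine and arginine before their first cysteines and draw neutrophils out of the blood towards a wound or infection. All of them bind the receptor CXCR2, and IL8 and CXCL6 also bind CXCR1. Their genes lie side by side on chromosome 4 and are classical targets of NF-κB, the transcription factor that interleukin 1, tumour necrosis factor and bacterial products activate, and their mRNAs carry AU-rich elements that make them short-lived.

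The promoters of the 6 genes are shown because all 6 genes rose at 0.5 h and share a stretch of letters. The 140 bases just before each gene's start are given 5′ to 3′ on the gene's own strand, from RefSeq with build GRCh38.p14, where all 6 genes were matched. Capitals mark GGAATTTCC, a form of the NF-κB consensus, further copies of the looser GGNNTTTCC, the AP-1 letters TGANTCA and the TATA letters TATAAA, each searched on both strands.
CXCL1, chr4:73869253-73869392, plus strand: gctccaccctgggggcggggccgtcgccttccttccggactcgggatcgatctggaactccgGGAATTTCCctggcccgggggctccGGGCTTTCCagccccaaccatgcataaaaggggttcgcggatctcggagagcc
CXCL2, chr4:74099196-74099335, minus strand: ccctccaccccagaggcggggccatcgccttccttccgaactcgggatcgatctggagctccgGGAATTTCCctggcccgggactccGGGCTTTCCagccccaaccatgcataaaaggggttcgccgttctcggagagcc
CXCL3, chr4:74038690-74038829, minus strand: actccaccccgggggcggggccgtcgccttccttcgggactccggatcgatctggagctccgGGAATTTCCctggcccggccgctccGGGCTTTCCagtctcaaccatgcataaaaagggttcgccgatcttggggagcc
CXCL5, chr4:73998678-73998817, minus strand: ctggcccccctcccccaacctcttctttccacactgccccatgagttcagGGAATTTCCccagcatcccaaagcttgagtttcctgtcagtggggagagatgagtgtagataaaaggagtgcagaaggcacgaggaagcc
CXCL6, chr4:73836538-73836677, plus strand: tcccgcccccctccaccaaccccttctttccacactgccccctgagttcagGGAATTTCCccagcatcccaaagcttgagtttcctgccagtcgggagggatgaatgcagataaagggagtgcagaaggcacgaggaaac
IL8 (CXCL8), chr4:73740429-73740568, plus strand: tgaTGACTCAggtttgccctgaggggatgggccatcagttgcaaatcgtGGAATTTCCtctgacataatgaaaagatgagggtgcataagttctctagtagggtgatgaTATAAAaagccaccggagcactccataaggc
Across the 250 bases before the start, GGAATTTCC was found in 6 of the 6 genes and in 145 of the 35116 promoters of that length in the table (0.413%). It ended 69 to 83 bases before the start in every member. GGNNTTTCC, which contains the first motif, was in 5.48% of all promoters, and CXCL1, CXCL2 and CXCL3 held a further copy, GGGCTTTCC, 53 to 45 bases before the start. TGANTCA and TATAAA were found in IL8 alone among the 6, against 6.57% and 10.7% of all promoters, and TGACGTCA, the CRE letters, were in none of the 6 and in 1.65% of all. The motifs were chosen for genes already known as NF-κB targets. The promoters of CXCL1, CXCL2 and CXCL3 read much alike, as do those of CXCL5 and CXCL6. The 6 matches are therefore not independent, and the share among all promoters is given as a description. A match describes these letters and not a bound site.

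CXCL1 and CXCL6 had 1 probe each, and CXCL2, CXCL3, CXCL5 and IL8 had 2 each. For each gene, the brightest probe over the 72 arrays leads in the values below. The second IL8 probe, A_23_P89380, carried the name IL8 on 60 arrays and SLC4A1, a red cell anion exchanger, on the 12 arrays of 0.5 h. It was well above background on 1 of 72 arrays and was not tested, so IL8 rests on A_32_P87013. None of the 9 tested probes was saturated on any array. The lead CXCL2 probe was non-uniform on 3 arrays, the control and bystander arrays of experiment 2 at 1 h and the bystander array of experiment 1 at 4 h, and the fit dropped those values. CXCL2 and CXCL3 are close relatives, and the second probes of the 2 genes share 32 aligned bases. The first 30 of them are shown, with capitals at the bases that differ.
CXCL2 probe A_24_P257416: tgtctcaaccccgcatcGcccatggttAag
CXCL3 probe A_24_P251764: tgtctcaaccccgcatcCcccatggttCag
Counted from 1 at the start of the overlap, the CXCL2 probe reads G18C and A28C against the CXCL3 probe. Their longest identical run was 17 bases, and no other of the 33 pairs of probes of different genes shared a run over 9 bases. Cross-hybridisation between these 2 probes was not tested, and the lead probes of CXCL2 and CXCL3 are not among the pair.

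Some arrays stood apart before any comparison was made. At 24 h, the 6 lead probes of experiment 3 lay on average 4.00 above their mean over all controls in control cells, 4.95 above it in irradiated cells and 4.86 above it in bystander cells, whereas the other experiments at that time lay between -0.86 and 1.62. At 1 h, the controls of experiments 1 and 2 were high, at 1.74 and 1.54, and those of experiments 3 and 4 were at -0.14 and -0.31. Experiments 1 and 2 also resembled each other over all probes, as they were the closest pair in 15 of the 18 groups of arrays. The methods of the study call the experiments independent. If these 2 shared a culture, which was not tested, the n of 4 behind each p-value would stand for 3 independent units. The median ratios over the probes at 1 and 24 h are given with and without these experiments. The ratios of single genes at 24 h and the correlations between genes include them.

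**Figure D1:**
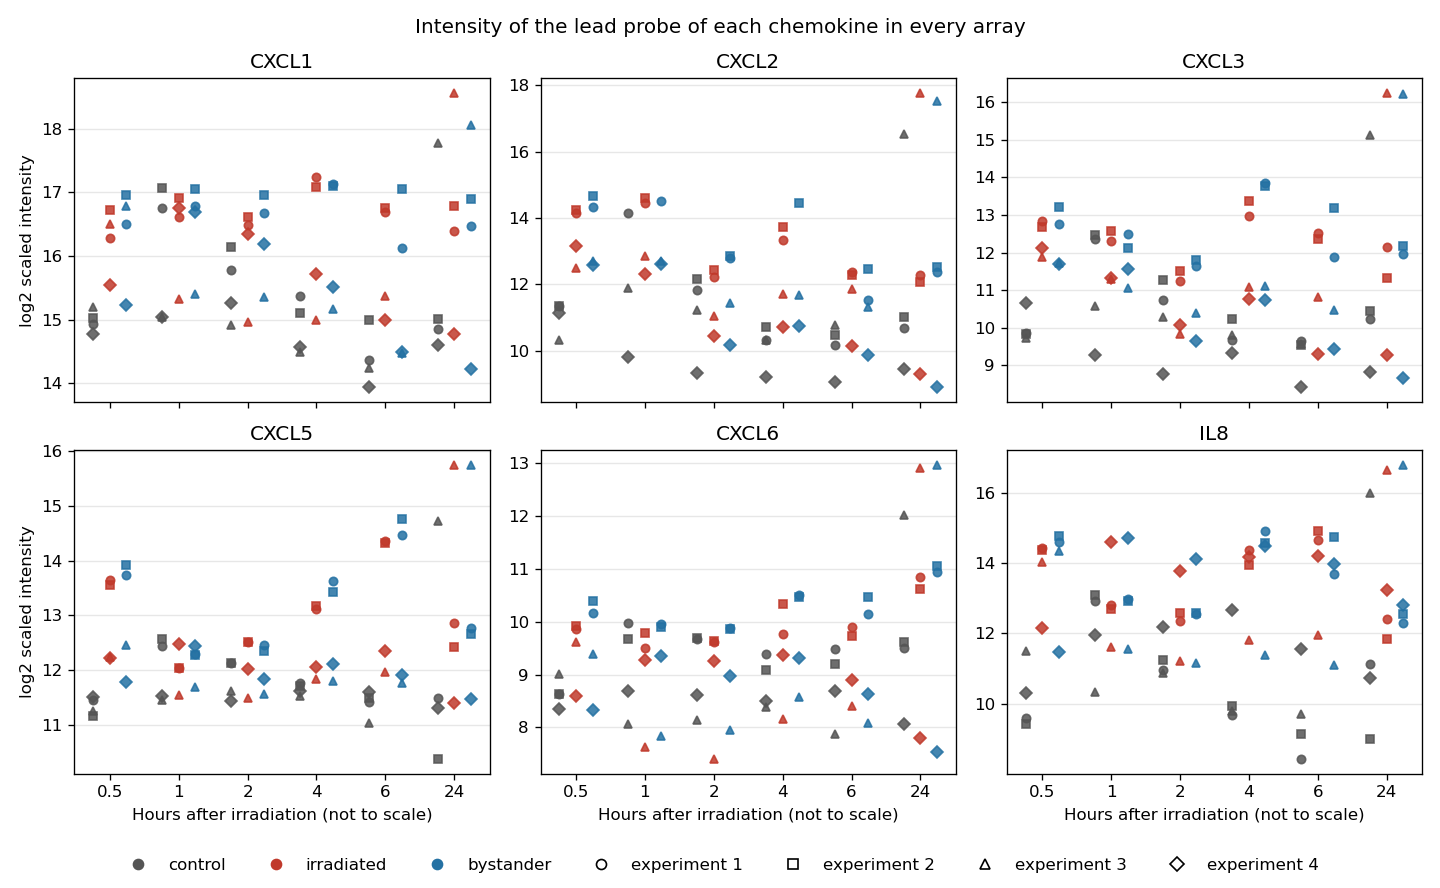
Log2 scaled intensity (vertical axis, each panel with its own range) of the lead probe of each chemokine in every array, by hours after irradiation, with controls in grey, irradiated cells in red, bystander cells in blue and 1 symbol per experiment. At 0.5 h the controls of CXCL2 lie between 10.33 and 11.36 and all irradiated and bystander arrays lie between 12.48 and 14.66, and at 24 h experiment 3 is the highest in every group.

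All 9 probes, and so all 6 genes, rose at 0.5 h in irradiated and in bystander cells. Over all tested probes, 6.65% rose in irradiated cells and 4.37% in bystander cells at that time. The median ratio of the 9 probes was 1.90 and 2.11, against -0.00408 and 0.0113 over all probes. None of the 9 passed at 1 h, when no probe on the array passed in either comparison, and 1 and 4 of the 9 had an unadjusted p under 0.05, against 26.4% and 14.4% of all probes. At 2 h, 3 probes rose in irradiated cells and 1 in bystander cells, against 3.52% and 0.198% of all probes. At 4 h, 7 of 9 rose in both, among 0.947% and 0.531% of all probes. At 6 h, 7 rose in irradiated cells, against 5.55%, and 2 in bystander cells, against 0.214%. At 24 h, 1 probe, of CXCL5, rose in both, against 0.107% and 0.0158%. No member fell at any time, and 106 of the 108 ratios were above 0. The irradiated and bystander comparisons share their control arrays, so their counts are set side by side and do not support each other.

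**Figure D2:**
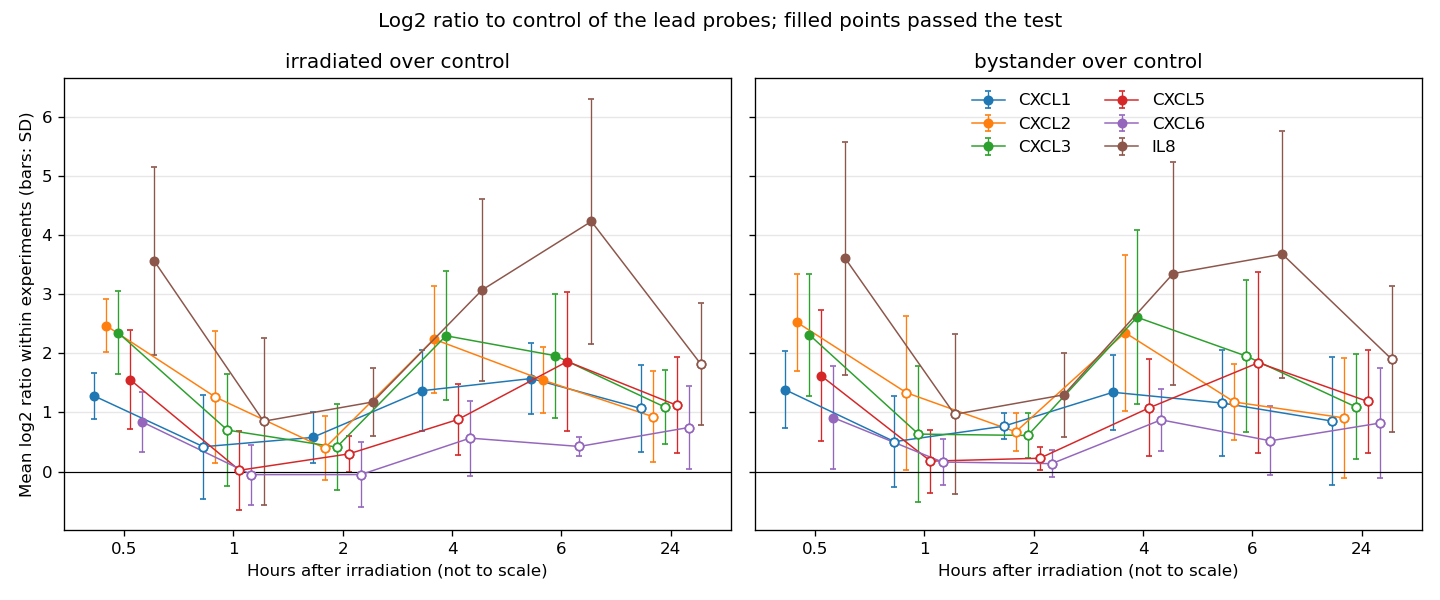
Mean log2 ratio to control within experiments (vertical axis, bars 1 SD over the experiments) of the 6 lead probes against hours after irradiation, for irradiated cells (left) and bystander cells (right), with filled points where the probe rose. Each probe lies higher at 0.5, 4 and 6 h than at 1 and 2 h, except CXCL2 in bystander cells with 1.33 at 1 h and 1.18 at 6 h, and IL8 has the highest point, 4.23 in irradiated cells at 6 h.

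The number of probes that rose depended on the experiments included. Without experiment 2, 0 of 9 passed at 0.5 h in either comparison, as did 0 of all probes, while the median ratios stayed at 1.80 and 1.93. At 4 h without it, CXCL1, the lead CXCL2 probe and the second CXCL5 probe passed in irradiated cells (adjusted p = 0.0951, 0.0823 and 0.0793 by limma). Of the probes reported as risen in bystander cells at 4 h, none then passed, the lowest adjusted p being 0.153. Without experiment 1, 7 and 1 passed at 0.5 h and 0 and 0 at 4 h, and the lowest adjusted p of a member at 4 h was 0.106 and 0.105. Without experiment 3, 8 and 8 passed at 0.5 h and 6 and 6 at 4 h, and without experiment 4, 8 and 9 passed at 0.5 h and 6 and 6 at 4 h. At 2 h, 0 and 0 passed without experiment 1 or 2, 1 and 1 without experiment 3, and 4 and 6 without experiment 4, when 4899 and 3037 of all probes passed. At 6 h in irradiated cells 3, 5, 7 and 8 passed without experiments 1, 2, 3 and 4, and in bystander cells 5 without experiment 3 and 0 without any other. The number of all probes that passed is given only without experiment 2 at 0.5 h and without experiment 4 at 2 h. The other counts are therefore not set against the whole array. The median ratios at 4 h lay between 1.55 and 2.21 in irradiated and between 1.68 and 2.46 in bystander cells when 1 experiment was left out. Of the 47 ratios that passed, 7 moved by more than 1.5 times in fold when 1 experiment was left out, 4 of them of IL8, 2 of the second CXCL5 probe and 1 of the lead CXCL2 probe. In bystander cells IL8 at 0.5 h was 8.08-fold without experiment 2 and 21.3-fold without experiment 4, and at 4 h 6.53-fold without experiment 1. The second CXCL5 probe was 9.77-fold at 0.5 h without experiment 4 and at 6 h 4.84-fold without experiment 2 and 12.1-fold without experiment 4, and CXCL2 at 4 h was 3.29-fold without experiment 2. With experiments 1 and 2 averaged and counted as 1, a choice made after seeing the data, 0 of 9 passed at 0.5, 2, 4 and 24 h and 5 passed at 6 h in irradiated cells only.

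CXCL1, CXCL2 and CXCL3, the GRO chemokines, are near copies of one another and all bind CXCR2. CXCL1 in control cells at 0.5 h was at 14.93, 15.03, 15.20 and 14.78 in experiments 1 to 4, in irradiated cells at 16.28, 16.73, 16.50 and 15.55, and in bystander cells at 16.51, 16.96, 16.78 and 15.23. Every exposed array lay above every control, with experiment 4 the lowest of each group. The ratio was 1.28 ± 0.39 (SD, n = 4, adjusted p = 0.0252 by limma) in irradiated cells and 1.38 ± 0.65 (adjusted p = 0.0191) in bystander cells.

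The lead CXCL2 probe at 0.5 h was at 11.34, 11.36, 10.33 and 11.14 in controls, at 14.15, 14.25, 12.48 and 13.16 in irradiated cells and at 14.32, 14.66, 12.69 and 12.58 in bystander cells. The groups did not overlap, and experiments 1 and 2 were the highest among the exposed arrays. CXCL2 had a ratio of 2.47 ± 0.45 (SD, n = 4, adjusted p = 0.00593) in irradiated cells, a 5.53-fold difference, and of 2.52 ± 0.82 (adjusted p = 0.0048) in bystander cells. Its second probe gave 1.85 and 1.94 and passed in both.

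CXCL3 at 0.5 h was at 9.87, 9.83, 9.74 and 10.67 in controls, at 12.83, 12.67, 11.88 and 12.11 in irradiated cells and at 12.75, 13.20, 11.72 and 11.70 in bystander cells. Again no exposed array fell among the controls, the highest of which was experiment 4. The ratio was 2.35 ± 0.70 (SD, n = 4, adjusted p = 0.0212) and 2.32 ± 1.03 (adjusted p = 0.0147), and the second CXCL3 probe gave 1.90 and 2.11. In all, 8 of the 9 probes in irradiated cells and 7 of 9 in bystander cells had no overlap with controls at 0.5 h, against 5.11% and 3.7% of all probes. At 4 h 6 of 9 in irradiated cells and 5 of the 8 with all 4 bystander arrays were without overlap, against 1.9% and 2.6%, and 4 and 1 at 6 h, against 4.5% and 1.1%.

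At 2 h the 3 GRO genes were closer to control. CXCL1 rose in irradiated cells (0.58, adjusted p = 0.0712), and so did the second CXCL3 probe (0.53, adjusted p = 0.084), while the lead CXCL2 and CXCL3 probes had ratios of 0.40 and 0.41 with adjusted p = 0.223 and 0.288. Experiment 4 had the largest differences of both, 1.11 and 1.32, and without it the median of the 9 probes in irradiated cells at 2 h was 0.207 in place of 0.44. In bystander cells the 5 GRO probes had ratios from 0.61 to 0.81 and none passed.

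At 4 h all 5 GRO probes rose in both comparisons. CXCL2 was at 10.32, 10.71, 10.31 and 9.22 in controls, at 13.35, 13.72, 11.72 and 10.72 in irradiated cells, and at 14.45, 11.69 and 10.75 in the bystander arrays of experiments 2 to 4. Experiments 3 and 4 carried the smaller differences. The CXCL2 ratio was 2.24 ± 0.91 (SD, n = 4, adjusted p = 0.0397) in irradiated cells and 2.35 (fitted from the arrays present, adjusted p = 0.0799) in bystander cells, where the 3 measured differences had a mean of 2.22 ± 1.32 (SD, n = 3). CXCL3 had ratios of 2.30 ± 1.09 (adjusted p = 0.0352) and 2.61 ± 1.47 (adjusted p = 0.0307), and CXCL1 of 1.37 ± 0.69 (adjusted p = 0.0275) and 1.34 ± 0.63 (adjusted p = 0.0407). CXCL1 overlapped its controls at 4 h, since the irradiated array of experiment 3 was at 14.99 and the control of experiment 1 at 15.38.

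At 6 h the GRO genes rose in irradiated cells on 4 of 5 probes, with CXCL1 at 1.57 ± 0.60 (adjusted p = 0.0211), CXCL2 at 1.54 ± 0.56 (adjusted p = 0.0132) and CXCL3 at 1.96 ± 1.05 (adjusted p = 0.0342). In bystander cells the same lead probes had ratios of 1.16, 1.18 and 1.95, and none passed (adjusted p = 0.175, 0.121 and 0.121). These genes at 24 h had ratios from 0.86 to 1.19 over the 5 probes and both comparisons, and none passed.

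CXCL5 and CXCL6 are a second pair of close relatives, made by epithelial cells and fibroblasts in response to interleukin 1. The lead CXCL5 probe at 0.5 h was at 11.47, 11.18, 11.27 and 11.52 in controls, at 13.65, 13.55, 12.24 and 12.22 in irradiated cells and at 13.74, 13.92, 12.47 and 11.79 in bystander cells. The groups did not overlap, and experiments 1 and 2 had the larger differences. Its ratio was 1.55 ± 0.84 (SD, n = 4, adjusted p = 0.0394) and 1.62 ± 1.11 (adjusted p = 0.037), and the second CXCL5 probe gave 2.75 (adjusted p = 0.0269) and 2.57 (adjusted p = 0.0298).

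The pair of CXCL5 probes differed in what passed later. At 4 h the lead probe had ratios of 0.88 and 1.08 and did not pass (adjusted p = 0.168 and 0.122), although its exposed arrays all lay above its controls, and the second probe rose by 2.16 (adjusted p = 0.00937) and 2.36 (adjusted p = 0.00614). At 6 h the lead probe was at 11.42, 11.49, 11.05 and 11.60 in controls, at 14.35, 14.32, 11.97 and 12.35 in irradiated cells and at 14.46, 14.76, 11.78 and 11.91 in bystander cells. Experiments 1 and 2 stood well above the rest. CXCL5 rose in irradiated cells on both probes, by 1.86 ± 1.18 (adjusted p = 0.05) and 2.92 (adjusted p = 0.0271), and in bystander cells on the second alone (2.87, adjusted p = 0.0916, against 1.84 with adjusted p = 0.171). Only this second probe rose at 24 h, by 1.61 (adjusted p = 0.0551) and 1.60 (adjusted p = 0.0956), and it passed in neither comparison when any 1 experiment was left out. It was well above background on 71 of 72 arrays. The second probe was far dimmer, with a mean level of 7.405 over the 72 arrays and a lowest of 4.562, against a mean of 12.36 for the lead probe.

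CXCL6 had the smallest differences of the 6 genes at 0.5 and 4 h. At 0.5 h it was at 8.63, 8.63, 9.02 and 8.35 in controls, at 9.87, 9.91, 9.61 and 8.59 in irradiated cells and at 10.17, 10.38, 9.39 and 8.33 in bystander cells, so that experiment 4 overlapped the controls. Its ratio was 0.84 ± 0.51 (SD, n = 4, adjusted p = 0.0898) and 0.91 ± 0.87 (adjusted p = 0.0863). At 4 h CXCL6 had ratios of 0.57 and 0.87, at 6 h of 0.42 and 0.52 and at 24 h of 0.75 and 0.82, and none of these passed.

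IL8, the prototype of the group, had the largest ratio of the 9 probes at every time but 1 h, when the lead CXCL2 probe, measured in 3 of the 4 experiments, had 1.26 and 1.33 against 0.85 and 0.97 for IL8. In controls at 0.5 h it was at 9.58, 9.42, 11.50 and 10.29, in irradiated cells at 14.44, 14.39, 14.03 and 12.17 and in bystander cells at 14.60, 14.79, 14.34 and 11.47. The irradiated arrays were apart from the controls, and the bystander array of experiment 4 lay just below the control of experiment 3. The ratio was 3.56 ± 1.59 (SD, n = 4, adjusted p = 0.0249) in irradiated cells, an 11.8-fold difference, and 3.60 ± 1.97 (adjusted p = 0.0215) in bystander cells, a 12.2-fold difference. With experiments 1 and 2 averaged these ratios were 3.11 and 3.07 (adjusted p = 0.122 and 0.151).

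IL8 was the 1 gene that passed in both comparisons at 2 h, with ratios of 1.18 (adjusted p = 0.0373) and 1.30 (adjusted p = 0.0816). At 4 h it was at 9.67, 9.93, 9.78 and 12.66 in controls, at 14.37, 13.96, 11.80 and 14.17 in irradiated cells and at 14.93, 14.58, 11.40 and 14.50 in bystander cells. Within experiment 4 the control was high, and within experiment 3 the exposed arrays were low, so the groups overlapped while all 4 experiments had a positive difference. The 4 h ratio was 3.07 ± 1.54 (adjusted p = 0.0308), 8.40-fold, and 3.35 ± 1.88 (adjusted p = 0.0312), 10.2-fold.

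IL8 at 6 h was at 8.42, 9.14, 9.71 and 11.57 in controls, at 14.66, 14.91, 11.97 and 14.22 in irradiated cells and at 13.69, 14.76, 11.10 and 13.99 in bystander cells. All irradiated arrays exceeded all controls, and the bystander array of experiment 3 did not exceed the control of experiment 4. Its ratio was 4.23 ± 2.07 (adjusted p = 0.0124), 18.8-fold, in irradiated cells and 3.67 ± 2.09 (adjusted p = 0.0686), 12.8-fold, in bystander cells. The irradiated fold was 11.8 without experiment 1 and 29.6 without experiment 3, and the bystander fold was 8.16 without experiment 2 and 21.7 without experiment 3. At 24 h the ratios were 1.82 and 1.90 and did not pass (adjusted p = 0.167 and 0.287), with controls at 11.12, 9.001, 16.02 and 10.74.

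**Figure D3:**
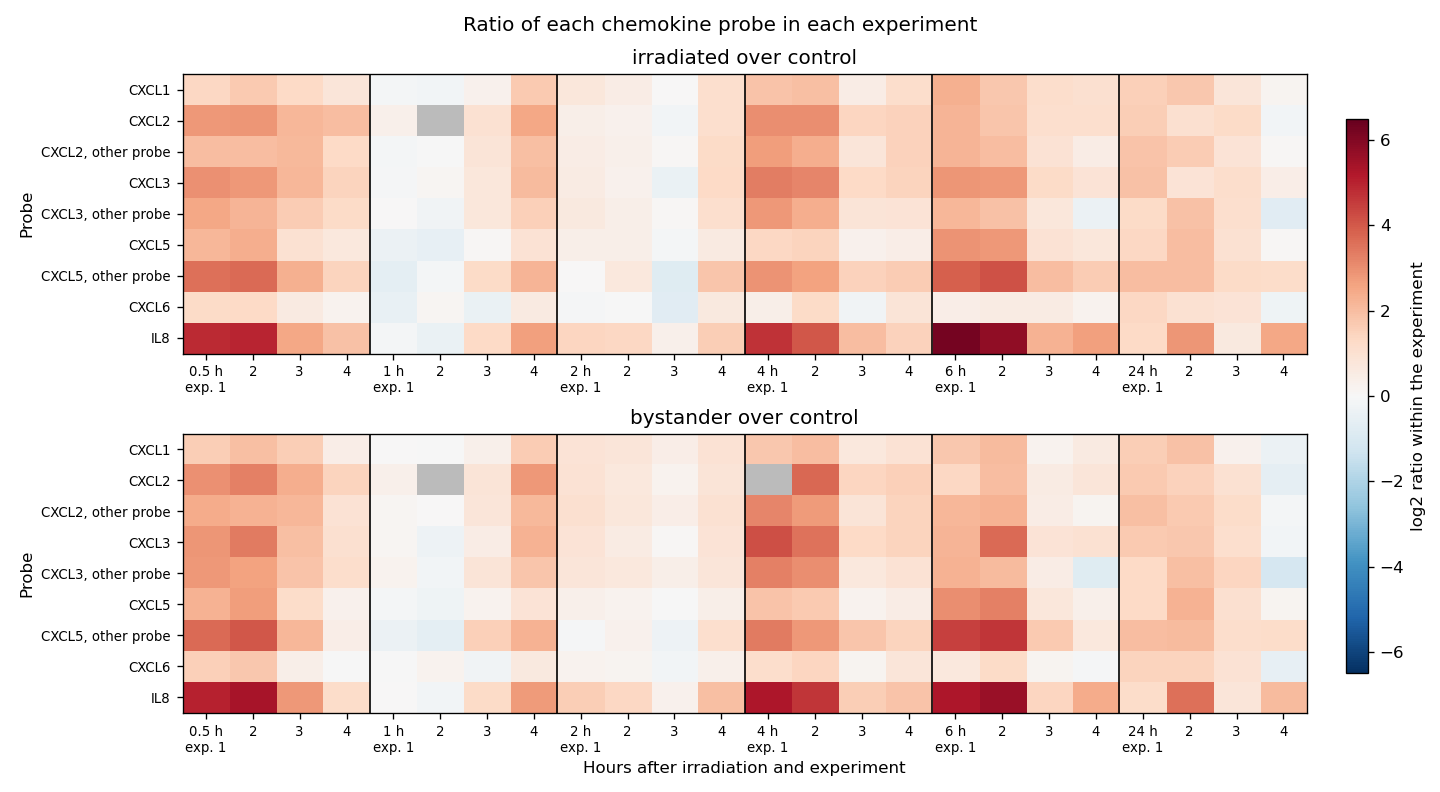
Log2 ratio within each experiment (colour, red above and blue below control, grey where a value was missing) for the 9 probes (rows) by hours after irradiation and experiment (columns), for irradiated over control (top) and bystander over control (bottom). At 0.5, 4 and 6 h experiments 1 and 2 are the darkest red for most probes, with exceptions in CXCL1, CXCL2 and CXCL6, and at 1 h experiment 4 is red while experiments 1 and 2 are near white.

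The ratios at 1 h split by experiment. The median over the probes was -0.14 and -0.16 in irradiated cells of experiments 1 and 2, but 0.74 and 1.94 in those of experiments 3 and 4. In bystander cells the medians were 0.05, -0.17, 0.80 and 2.11. IL8 at 1 h was at 12.94, 13.10, 10.34 and 11.95 in controls and at 12.82, 12.70, 11.62 and 14.61 in irradiated cells. The first pair of IL8 controls were at the level of their own irradiated cells. Without experiment 4, the median of the 9 probes fell from 0.64 to 0.18 in irradiated cells and from 0.67 to 0.17 in bystander cells. It was 0.905 and 0.826 without experiment 1 and 0.872 and 0.959 without experiment 2.

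Experiment 3 at 24 h had differences of the same sign as experiments 1 and 2 at a far higher level, while experiment 4 had a median ratio of 0.0848 in irradiated and -0.159 in bystander cells, with 6 and 3 of the 9 probes above 0. CXCL2 at 24 h was at 10.67, 11.02, 16.53 and 9.46 in controls and at 12.27, 12.07, 17.77 and 9.30 in irradiated cells. The third of these experiments was the highest in both groups, and its difference of 1.23 lay within the range of the others. The median ratio of the 9 probes at 24 h was 1.09 in both comparisons and 1.16 and 1.10 without experiment 3. Without experiment 4 it was 1.42 and 1.53.

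Whether the ratios at 2 h differed from those at 0.5 and 4 h by more than the spread between experiments was tested on the ratios, and no change to or from 1 h was tested. IL8 was lower at 2 h than at 0.5 h by 2.38 in irradiated cells, from 3.56 to 1.18 (95% interval of the change -4.08 to -0.68, adjusted p = 0.698 by limma). From 2 to 4 h it changed by 1.89 (0.19 to 3.59, adjusted p = 0.999) and was lower at 24 h than at 6 h, with a change of -2.41 (-4.11 to -0.71, adjusted p = 0.49). CXCL2 changed by -2.07 between 0.5 and 2 h (-3.01 to -1.13, adjusted p = 0.513). All 9 probes changed downwards from 0.5 to 2 h and upwards from 2 to 4 h in both comparisons, and none of these changes passed. Over all probes 0 passed in either of those steps, and 1 (0.00396%) passed between 6 and 24 h in bystander cells. Of the members, 8, 6 and 1 of 9 had an unadjusted p under 0.05 in irradiated cells for the 3 steps, against 7.05%, 3.32% and 8.81% of all probes. Times were hybridised on different slides, so time and slide cannot be told apart.

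Irradiated and bystander cells were also compared with each other. No member passed at any time, and among all probes 11 passed, all at 2 h (0.0436%). Unadjusted p was under 0.05 for 0 of 9 at each of the 6 times, and for 0.416% to 4.74% of all probes. At 0.5 h the 9 differences ran from -0.21 to 0.18, and the widest 95% interval, that of IL8, from -1.30 to 1.22. At 4 h they ran from -0.31 to 0.03. The largest difference was that of IL8 at 6 h, which was 0.55 higher in irradiated cells in 4 of 4 experiments with an interval of -0.85 to 1.96. CXCL1 at 6 h had ratios to control of 1.57 and 1.16, and its difference of 0.41 also had an interval across 0. The direction at 6 h depended on the scaling, with a median over the 9 probes of 0.09, and of -0.12 when arrays were scaled to added spike-in transcripts. The intervals do not show that both kinds of cell made equal amounts of these mRNAs.

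**Figure D4:**
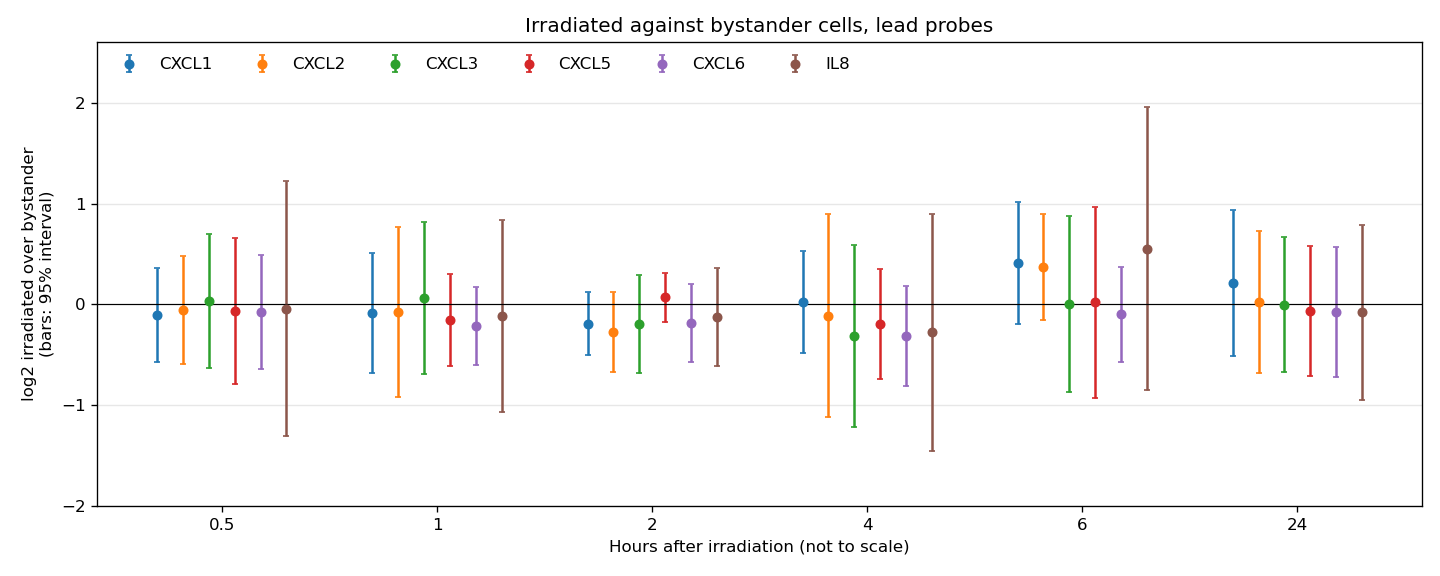
Log2 difference between irradiated and bystander cells (vertical axis, bars 95% interval) of the 6 lead probes at each time. Every interval includes 0, and the widest at 0.5 h, for IL8, reaches from -1.30 to 1.22.

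The slide on which arrays were hybridised was considered beside these results. Irradiated and control arrays of 1 experiment shared a slide in 3 of 4 experiments at each time, and bystander and control arrays in 2 of 4. Within shared slides, IL8 at 0.5 h had a mean ratio of 3.09 in irradiated cells and 3.93 in bystander cells, and at 4 h of 2.75 and 3.55. With the slide added to the fit, 8 and 8 probes passed at 0.5 h, 6 and 0 at 4 h. The median ratios of the chemokine probes in that fit were 1.80 and 2.20 at 0.5 h and 1.67 and 2.08 at 4 h. The share of all probes that passed in that fit is not given, so these counts are not set against the whole array.

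The other genes of the pathway were counted by lists, which were chosen with earlier results of these data known. Their counts beside the share of all probes are descriptions and do not support the chemokine results. Among the other CXC chemokines, 6 probes of 4 of the 11 genes could be tested, and none rose at any time. CXCL12, which retains haematopoietic cells in the bone marrow, fell on 1 of its 3 probes at 0.5 h, by 1.48 (adjusted p = 0.0433) in irradiated cells and by 1.45 (adjusted p = 0.0511) in bystander cells, and on another probe at 6 h by 0.90 (adjusted p = 0.0323) in irradiated cells. Over all tested probes 3.71% and 2.63% fell at 0.5 h, and 5.13% and 0.0634% at 6 h. The list had a median ratio of -0.44 and -0.37 at 0.5 h. Of the 8 receptors of the family, only CXCR3 and ACKR3 could be tested, and neither passed at any time, while the probes of CXCR1 and CXCR2 did not pass the filter.

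A further list, also chosen with earlier results known, held other signals that act on neutrophils, such as cytokines and adhesion molecules. Of it, 6 probes of 4 of 7 genes were tested, and 6 rose in irradiated and 5 in bystander cells at 0.5 h (6.65% and 4.37% of all probes), 4 and 2 at 2 h (3.52% and 0.198%), 5 and 6 at 4 h (0.947% and 0.531%), and 5 and 3 at 6 h (5.55% and 0.214%). IL6, a cytokine of the acute phase, had ratios of 2.55 (adjusted p = 0.0303) and 2.18 (adjusted p = 0.045) at 0.5 h. PTGS2, the inducible cyclooxygenase that makes prostaglandins, had 2.80 (adjusted p = 0.0049) and 2.94 (adjusted p = 0.0041) on the probe with the larger values. ICAM1, the adhesion molecule that neutrophils grip, had 0.80 and 0.85, and LIF, a cytokine of the IL6 family, 1.40 and 1.42 on its stronger probe, and all 4 of these passed. The list's median ratio was 1.98 and 1.80 at 0.5 h.

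Upstream of the chemokines, 37 probes of 27 of 31 signalling genes were tested, on a list chosen with the same knowledge. At 0.5 h 10 rose and 4 fell in irradiated cells and 10 rose and 2 fell in bystander cells, with a list median of 0.12 and 0.17, when 6.65% and 4.37% of all probes rose and 3.71% and 2.63% fell. At 2 h 3 rose and 4 fell in irradiated cells, when 3.52% of all probes rose and 2.64% fell, and none passed in bystander cells. At 0.5 h IL1A and IL1B, the genes of interleukin 1, rose by 1.55 and 1.57 in irradiated cells and by 1.74 and 1.68 in bystander cells. TNFAIP3, which ends NF-κB signalling by removing ubiquitin, had 1.98 and 1.88 on the stronger of its probes, NFKBIZ, an atypical IκB protein, 1.51 and 1.41, and REL, an NF-κB subunit, 1.26 and 1.20, all of which passed at 0.5 h. At 4 h 6 and 7 probes of the list rose and none fell, when 0.947% and 0.531% of all probes rose. At 6 h 5 rose and 5 fell in irradiated cells, against 5.55% and 5.13% of all probes, and 1 rose in bystander cells, against 0.214%. Among 18 probes of 9 genes that control mRNA decay, 2 rose in irradiated cells at 0.5 h and none in bystander cells, against the same 6.65% and 4.37% of all probes, and 1, of MAPKAPK2, fell in irradiated cells at 6 h, against 5.13%. Those that rose were ZFP36, which binds AU-rich elements and brings about decay (0.94, adjusted p = 0.0644), and DUSP1, the phosphatase that restrains p38 kinase (0.99, adjusted p = 0.0674).

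The genes that neighbour the chemokines on the chromosome were taken from the RefSeq table. Between the outermost members and 5 genes on each side lay 21 other genes, of which 9 had a probe and 4 a probe that could be tested. PF4 and PF4V1, platelet chemokines of the same family that lack the neutrophil-attracting residues, and the pseudogene LOC643014 passed at no time. EREG, which encodes the growth factor epiregulin, rose on both probes at 0.5 h, by 0.79 and 0.91 in irradiated cells and by 0.91 and 0.74 in bystander cells, so that 2 of the 5 neighbour probes rose, against 6.65% and 4.37% of all probes, and did not pass at 4 h.

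**Figure D5:**
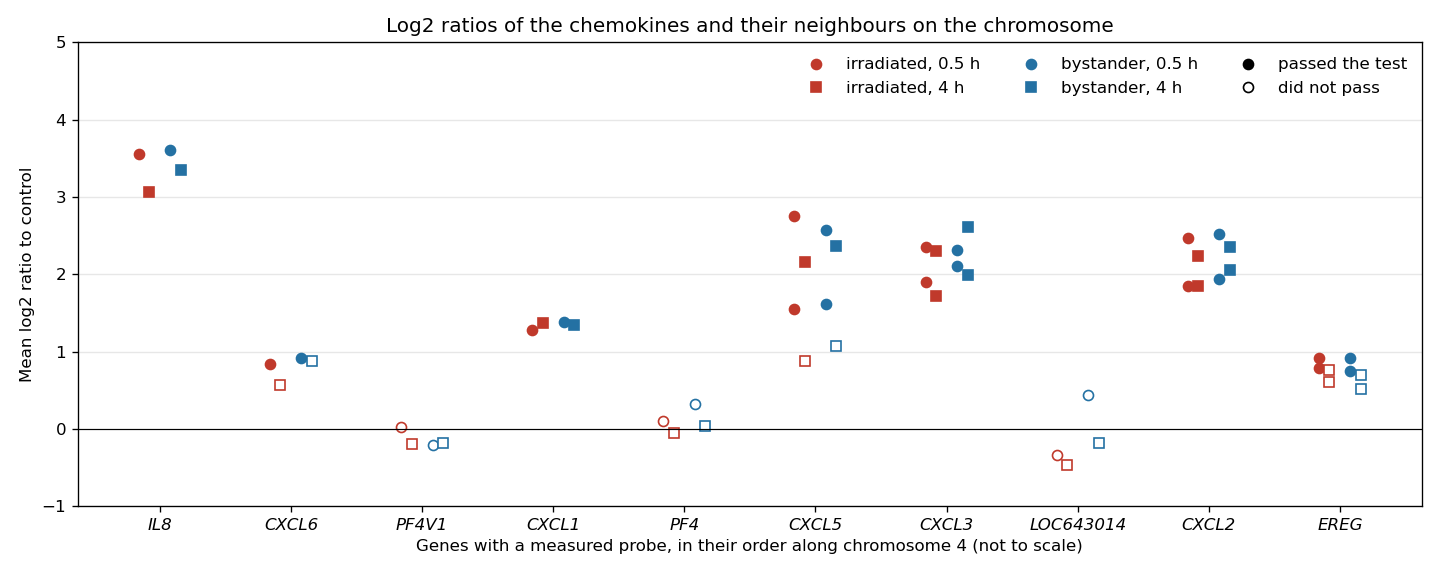
Mean log2 ratio to control (vertical axis) of each tested probe of the chemokines and of their neighbours, in order along chromosome 4 and not to scale, at 0.5 h (circles) and 4 h (squares) in irradiated (red) and bystander (blue) cells, filled where the probe passed. The points of PF4V1, PF4 and LOC643014 are all open and at most 0.47 from 0, and the chemokines reach 3.60.

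Markers of cell types were read in the same arrays. All 16 probes of 10 fibroblast genes were well above background on all 72 arrays, the brightest being a probe of the collagen gene COL1A2, and their summed level was 20.24 in controls, 19.94 in irradiated and 19.92 in bystander cells. These levels are log2 of the summed intensity of the list. THY1, a fibroblast surface protein, fell by 1.05 and 1.09 at 0.5 h, when 1 of the 16 probes fell in irradiated and 2 in bystander cells, against 3.71% and 2.63% of all probes. A probe of PDGFRB, a growth factor receptor, was the other that fell in bystander cells, and it fell in irradiated cells at 2 h and 6 h, when 2.64% and 5.13% of all probes fell. The part of these genes in the chemokine results was not tested. Of 9 probes of 8 leukocyte and neutrophil genes, 2 passed the filter, CD14, the brightest of the list, and ELANE, and their summed level was 8.72, 8.60 and 8.65. The defining marker PTPRC was above background on 1 and 4 of 72 arrays with its 2 probes and LYZ on none. ELANE, neutrophil elastase, fell in irradiated cells at 0.5 h by 1.07 (adjusted p = 0.0688 by limma), at 4 h by 1.19 (adjusted p = 0.0946) and at 6 h by 1.22 (adjusted p = 0.071). Over all tested probes 3.71%, 0.246% and 5.13% fell in irradiated cells at these times. ELANE was dim, with a mean level of 6.394 in controls, 5.36 in irradiated and 5.50 in bystander cells. It was well above background on 66 arrays. ITGAM, an integrin of myeloid cells, was above background on 64 arrays, too few for the filter, with a mean level of 6.602 in controls, 6.18 in irradiated and 6.40 in bystander cells. CSF1R, a receptor of macrophages, was above background on 56 arrays and had a mean level of 4.38 in controls, 5.63 in irradiated and 5.51 in bystander cells. MPO, the peroxidase of neutrophils, was above background on 24 arrays, with 3.94, 4.30 and 4.14. The differences of these 3 genes were not tested. None of 5 epithelial probes passed the filter, and their summed level, with a probe of EPCAM the brightest, was 6.21, 6.88 and 6.69. Of 6 endothelial probes 2 did, and their summed level, with a probe of KDR the brightest, was 9.61, 9.49 and 9.56.

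Genes whose levels ran most like the 6 chemokines were sought over the 72 arrays, after the mean of each time was removed. The highest Pearson correlations with the mean of the 6 genes were those of BCL2A1 (0.928), TNFAIP2 (0.920), TNFAIP3 (0.904), NAMPT (0.902), IL6 (0.895), GCH1 (0.881), SOD2 (0.878), NFKBIZ (0.874) and ZC3H12C (0.861), with an unnamed probe, A_24_P592591, at 0.879. The arrays share slides, controls and experiments, so these are descriptions. They include the 24 h arrays of experiment 3, at 4.00, 4.95 and 4.86 above the mean of the lead probes over all controls. The high 1 h controls of experiments 1 and 2 are also included. No correlation was computed without these arrays, and their part in the ranking was not tested. The member probes themselves ranged from 0.832 for IL8 to 0.976 for the second CXCL2 probe. Each of them is part of the mean it was compared with, which raises its correlation. Their ranks among all tested probes ran from 1 for the second CXCL2 probe to 28 for IL8. BCL2A1, an inhibitor of cell death, had ratios to control in irradiated cells of 2.09 at 0.5 h, 1.97 at 4 h and 1.74 at 6 h. GCH1, the first enzyme of tetrahydrobiopterin synthesis, had 1.80, 1.505 and 0.56 at the same times, and SOD2, the mitochondrial superoxide dismutase, 1.26, 0.95 and 0.77.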

How the data were processed

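In all, 72 RNA samples were hybridised, those of irradiated and bystander cells coming from nested dishes that shared medium, to 1-colour Agilent whole human genome arrays, with 4 arrays for each of 3 groups at 6 times, 4 arrays on each of 18 slides. The authors deposited scanner output made with Feature Extraction 9.1.3.1, in which the processed signal intensity of each spot was background-subtracted and spatially detrended, with no scaling between arrays. A deposited value table held the log2 of the same intensities, from which it differed by a median of 1.77e-07, and served as an alternative.

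Spots of a probe were averaged, non-uniform spots were set missing, arrays were scaled to a common 75th percentile and values under 5 were raised to 5. Probes not well above background or non-uniform on more than 10% of arrays were left out, which kept 25246 of 41000. A limma model (version 3.58.1, under R 4.3.3) was fitted to the 12 arrays of each time separately, taking treatment and experiment as terms, with a trended variance and Benjamini-Hochberg adjustment over all tested probes. Changes between times were fitted on the 24 ratios of each treatment. Dishes of an experiment came from 1 pool of cells, per the study's methods, and same-numbered arrays deviated together with a correlation above 0.1 in 12 of 12 pairs at 0.5, 1, 2 and 24 h and in 10 of 12 at 4 and 6 h. The code was tested on simulated data.

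Members and gene lists were chosen with earlier results of these data known. Within lists, up to 6 probes were named by the largest ratio at 0.5 or 4 h. Like-pattern genes were the 10 with the highest correlation. The number of arrays limits the precision.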

Additional observations from a re-analysis of the deposited data

Results flagged for a closer look

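Single arrays stood far from the other 3 of their group in 9 of the 105 groups of levels with 4 values (Dixon's criterion for 4 values). Chance gives about 1 in 20. CXCL1 stood apart in irradiated cells of experiment 3 at 2 h (14.96) and in the control of experiment 3 at 24 h (17.77). CXCL3 stood apart in the control of experiment 4 at 0.5 h (10.67) and at 6 h (8.42). IL8 stood apart in bystander cells of experiment 4 at 0.5 h (11.47), in irradiated and bystander cells of experiment 3 at 4 h (11.80 and 11.40), in the control of experiment 4 at 4 h (12.66) and in bystander cells of experiment 3 at 24 h (16.81). Of 69 groups of ratios within experiments, 0 held such a value.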

How the results depend on the processing

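Of the 47 ratios that passed, all kept their direction under every alternative run. They were picked because they passed in these same arrays, so a change of direction was unlikely from the start. The kept direction is therefore no support for them. The number that passed also when 1 choice was changed was 46 with the authors' value table, 44 with quantile normalization, 43 with scaling to spike-in transcripts, 41 with normexp background correction, 40 without scaling, 29 with the slide in the fit, 13 without the filter, 5 with experiments 1 and 2 averaged and 3 without the replicate block. It was 11, 8, 39 and 40 without experiment 1, 2, 3 and 4. Counts of chemokine probes that passed are given below as irradiated and bystander against control. The number of all probes that passed is given there only for spike-in scaling in bystander cells at 1 and 6 h. The other counts are therefore not set against the whole array.

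Without the replicate block (no pairing by experiment) 1 and 2 passed at 0.5 h and 0 and 0 at 2, 4, 6 and 24 h. With experiments 1 and 2 averaged, 0 and 0 passed at 0.5, 2, 4 and 24 h, and 0 in bystander cells at 6 h. Without the filter, which raised the number of probes tested to 41000, 5 passed in irradiated cells at 0.5 h, 0 and 0 at 2, 4 and 24 h and 2 and 0 at 6 h. With the slide in the fit, 0 and 0 passed at 2 and 24 h, and 0 in bystander cells at 4 and 6 h. Without scaling, 1 and 0 passed at 2 h and 0 and 0 at 24 h. With spike-in scaling, 7 passed in bystander cells at 1 and 6 h, as did 10434 and 403 of all 25246 probes, 1 and 2 at 2 h and 2 and 2 at 24 h. With normexp, 1 and 2 passed at 2 h, 1 in bystander cells at 6 h and 0 and 0 at 24 h. Quantile normalization gave 1 in bystander cells at 6 h and 0 at 24 h, and the authors' value table gave 1 at 6 h. At an adjusted p of 0.05, 1 and 0 passed at 2 h, 0 in bystander cells at 6 h and 0 and 0 at 24 h. Leaving out 1 experiment in turn gave 0 to 8 and 0 to 9 at 0.5 h, 0 to 4 and 0 to 6 at 2 h, 0 to 6 and 0 to 6 at 4 h, 3 to 8 and 0 to 5 at 6 h, 0 and 0 at 24 h, and 0 to 4 for the change from 0.5 to 2 h in each treatment. The cause of these changes was not tested.

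Ratios near 0 at 1 and 2 h changed sign. Without scaling, when the median ratio to control over all probes lay between -0.38 and 0.421 (between -0.111 and 0.434 with spike-in scaling), CXCL6 in irradiated cells at 1 h was at 0.16, CXCL2 at 2 h at -0.0033, the lead CXCL5 probe at 2 h at -0.10, and in bystander cells at 2 h CXCL6 was at -0.148, the lead CXCL5 probe at -0.0577 and the second CXCL5 probe at -0.0456. With spike-in scaling CXCL6 in irradiated cells was at 0.239 at 1 h and 0.0617 at 2 h. With normexp CXCL5 in irradiated cells at 1 h was at -0.0052 and CXCL6 at 2 h at 0.0101. Leaving out 1 experiment gave ranges across 0 in irradiated cells at 1 h for CXCL1 (-0.00543 to 0.616), the lead CXCL5 probe (-0.281 to 0.207) and CXCL6 (-0.265 to 0.0904), and at 2 h for the second CXCL5 probe (-0.0212 to 0.852) and CXCL6 (-0.277 to 0.177). In bystander cells it did so at 1 h for the lead CXCL5 probe (-0.0661 to 0.334) and CXCL6 (-0.00429 to 0.295) and at 2 h for the second CXCL5 probe (-0.0443 to 0.425). None of these passed in the reported fit.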
